A study of Mus musculus with 6 samples.

Results

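The genes described here encode components of the basement membrane, the thin sheet of extracellular matrix that surrounds muscle fibres, vessels, nerves and epithelia. There were 10 of them among 54532 genes in the count table: the 3 Fraser complex genes Fras1, Frem1 and Frem2, the laminin chain genes Lama2, Lama4, Lama5, Lamb1, Lamb2 and Lamc1, and the nidogen gene Nid1. The genes were chosen by name, with the difference between Myf5Cre-Pcyt2 and control muscle in the same 6 libraries in view. Their differences between the groups are therefore a description, are given without a p-value and support nothing by themselves.

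RNA was sequenced from the quadriceps of mouse pups at P10 (10 days after birth), with 3 Myf5Cre-Pcyt2 libraries and 3 control libraries of the genotype Pcyt2 flox/flox. Pcyt2 encodes the rate-limiting enzyme of the CDP-ethanolamine route to phosphatidylethanolamine, a membrane phospholipid. Myf5Cre expresses Cre recombinase in cells that have switched on Myf5, which include muscle precursors. All pups received chow, no label says that controls carry Cre, and an effect of losing Pcyt2 and an effect of Cre cannot be told apart. Whether litters were shared between pups is not in the labels, so the p-values below measure the spread between these libraries, which may be partly technical.

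Laminins are trimers of an alpha, a beta and a gamma chain that polymerise on cell surfaces and start the assembly of a basement membrane. Nidogen 1 links the laminin gamma1 chain to the collagen IV network, and dystroglycan and integrins hold laminin at the surface of the muscle fibre. The Fraser complex is made of the large proteins Fras1, Frem1 and Frem2, which anchor epithelia to the dermis in the embryo and whose loss causes skin blistering in mice and Fraser or related syndromes in people.

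Library totals ranged from 18271765 to 20446920 counts in Myf5Cre-Pcyt2 muscle and from 17775898 to 20216013 counts in control muscle. Levels are given as TMM-normalised CPM, that is counts relative to a library total scaled with edgeR's TMM factors. Pcyt2 itself was measured at 14.9, 14.3 and 12.6 CPM in Myf5Cre-Pcyt2 muscle, against 18.7, 16.1 and 16.0 CPM in control muscle. The Myf5Cre-Pcyt2 libraries were all below the control libraries, but the difference was not past the threshold, an adjusted p under 0.05 (log2 fold change −0.28 ± 0.11 SE, adjusted p = 0.0944 by edgeR's quasi-likelihood test with Benjamini-Hochberg adjustment over 14715 tested genes). The labels do not name the floxed exons, so a count over the whole gene is a limited check of the genotype. Myf5, the gene whose regulatory sequence drives the Cre, averaged 5.18 ± 0.337 CPM in Myf5Cre-Pcyt2 muscle and 4.71 ± 0.922 CPM in control muscle (SD, n = 3 each), with overlap. The 10 skeletal muscle fibre markers were all detected, as the tissue label says, and led by Acta1 and Myh4 (by mean level over the 6 libraries, as for each marker list), and their summed level was 108538 to 141223 CPM in Myf5Cre-Pcyt2 libraries and 168940 to 231392 CPM in control libraries.

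Of the 14715 genes tested, 18.6% differed between the groups at an adjusted p under 0.05, with 1328 (9.02%) higher and 1411 (9.59%) lower in Myf5Cre-Pcyt2 muscle. Scaling by library size alone shifted the median log2 fold change over all genes to 0.21 and turned this split into 3225 higher and 499 lower, so every difference here is relative to TMM. All 10 basement membrane genes passed the filter on low counts. Of them 8 were past the same threshold in the higher direction, 0 in the lower direction, and Lama5 and Lamb2 were past neither. The same 8 genes had every Myf5Cre-Pcyt2 library above every control library, which held for 19.9% of all tested genes. The median log2 fold change was 0.57 over the 10 genes, 1.07 over the 3 Fraser complex genes and 0.46 over the 7 laminin and nidogen genes, beside −0.002 over all tested genes. Nothing is read from these counts, since the same contrast was in view when the genes were chosen.

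The genes are also long. Among tested genes whose merged exons are at least as long as those of Lamb2, the shortest of the 10 at 6082 bases, 14.2% of 4360 were higher and 5.83% were lower in Myf5Cre-Pcyt2 muscle. Among the 10350 shorter genes, 6.85% were higher and 11.2% were lower. This split by length was made after the values had been seen, and its part in the result was not tested.

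**Figure D1:**
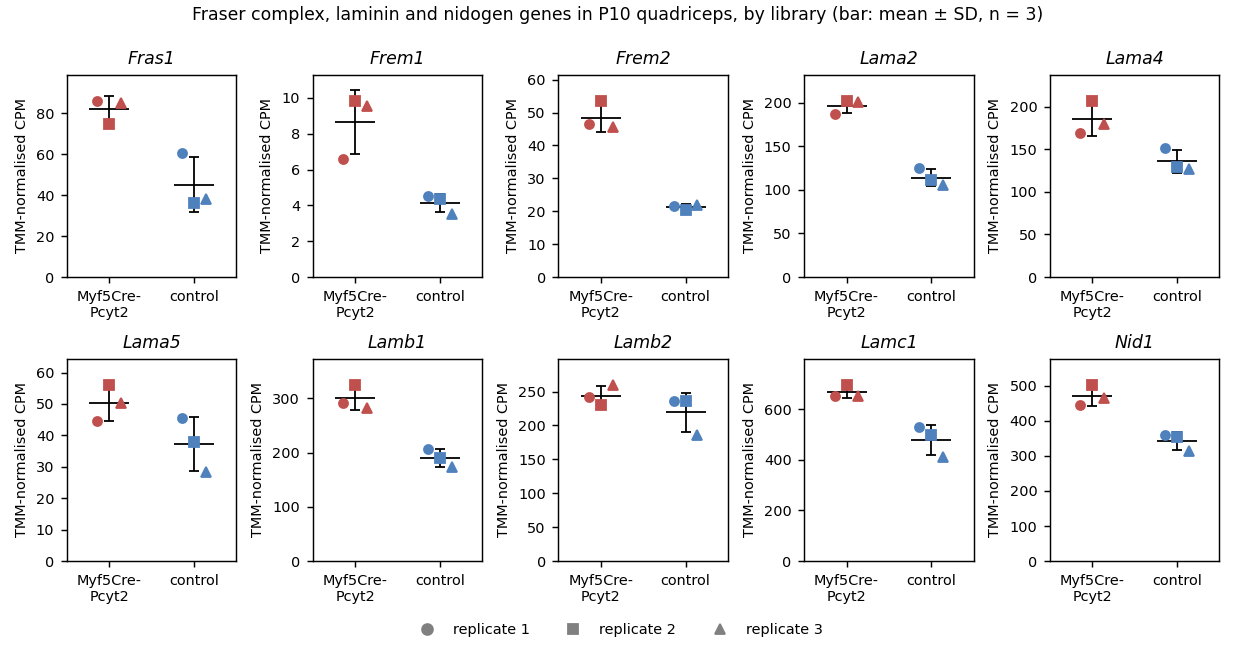
TMM-normalised CPM (vertical axis, from 0, a separate scale for each gene) of the 10 genes in each library; Myf5Cre-Pcyt2 is on the left and control on the right of each panel, marker shapes give the replicate number, and bars show the mean ± SD (n = 3 per group). The groups do not overlap for 8 genes, and they overlap for Lama5 and Lamb2.

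The Fraser complex genes had the largest fold changes of the 10. Frem2 (chr3:53513938-53657355, minus strand, GRCm38, gene bounds from GENCODE M21), which encodes a transmembrane component of the complex, was at 46.4, 53.5 and 45.5 CPM in Myf5Cre-Pcyt2 muscle, against 21.8, 20.3 and 22.1 CPM in control muscle. The lowest Myf5Cre-Pcyt2 library was 2.06 times the highest control library, and the control libraries lay within a coefficient of variation of 4.41%. The mean was 48.5 ± 4.39 CPM in Myf5Cre-Pcyt2 muscle and 21.4 ± 0.943 CPM in control muscle (SD, n = 3 each), a log2 fold change of 1.18 ± 0.09 (SE) or 2.27-fold.

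Frem1 (chr4:82897920-83052339, minus strand), which encodes a secreted component of the complex, was the least abundant of the 10 genes. Its counts were 123, 225 and 207 in Myf5Cre-Pcyt2 libraries and 85, 75 and 61 in control libraries, which correspond to 6.57, 9.82 and 9.56 CPM in Myf5Cre-Pcyt2 muscle and 4.50, 4.35 and 3.53 CPM in control muscle. Myf5Cre-Pcyt2 replicate 1 stood below the other two of its group and still 1.46 times above the highest control library. The log2 fold change was 1.07 ± 0.19 (SE), with the largest standard error of the 10 genes.

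Fras1 (chr5:96373955-96784728, plus strand), which encodes the other transmembrane component, was at 86.1, 74.8 and 85.3 CPM in Myf5Cre-Pcyt2 muscle, against 60.6, 36.4 and 38.4 CPM in control muscle. Control replicate 1 was far above the other controls, so the control coefficient of variation was 29.8%, against 7.72% in Myf5Cre-Pcyt2 muscle. The groups did not overlap, and the log2 fold change was 0.86 ± 0.17 (SE). The summed level of the 3 Fraser complex genes was nearly flat within the mutant group, at 139, 138 and 140.4 CPM in Myf5Cre-Pcyt2 muscle, against 86.9, 61.0 and 64.0 CPM in control muscle. In Myf5Cre-Pcyt2 replicate 2 Fras1 was the lowest of its group and Frem1 and Frem2 the highest, so the flat sum hides opposite deviations.

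Of the laminin alpha chains, Lama2 (chr10:26980036-27619758, minus strand) encodes the main alpha chain of the muscle fibre basement membrane, whose loss causes a congenital muscular dystrophy. It was at 187, 202 and 201 CPM in Myf5Cre-Pcyt2 muscle, against 125, 112 and 106 CPM in control muscle. The groups were separated by a factor of 1.5 between the lowest Myf5Cre-Pcyt2 library and the highest control library. The log2 fold change was 0.78 ± 0.09 (SE), the largest of the laminin genes.

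Lama4 (chr10:38965515-39110188, plus strand), which encodes an alpha chain known from blood vessel basement membranes, was at 169, 207 and 179 CPM in Myf5Cre-Pcyt2 muscle, against 151, 129 and 127 CPM in control muscle. The groups were apart by a smaller margin, with Myf5Cre-Pcyt2 replicate 1 at 1.12 times control replicate 1, and the log2 fold change was 0.45 ± 0.11 (SE). Lama5 (chr2:180176373-180225859, minus strand), whose alpha chain is found in epithelial and vessel basement membranes, was at 44.5, 56.0 and 50.2 CPM in Myf5Cre-Pcyt2 muscle, against 45.5, 37.9 and 28.5 CPM in control muscle. Control replicate 1 was above Myf5Cre-Pcyt2 replicate 1, so the groups overlapped, and the log2 fold change was 0.43 ± 0.15 (SE).

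Both beta chains were measured. Lamb1 (chr12:31265234-31329644, plus strand) encodes the beta1 chain, which pairs with alpha2 along most of the muscle fibre. It was at 293, 325 and 283 CPM in Myf5Cre-Pcyt2 muscle, against 207, 190.4 and 174 CPM in control muscle, without overlap and with a log2 fold change of 0.65 ± 0.10 (SE). Lamb2 (chr9:108479736-108490530, plus strand) encodes the beta2 chain, which is concentrated at the neuromuscular junction. Its levels were 242, 230.4 and 259.6 CPM in Myf5Cre-Pcyt2 muscle, against 236, 236 and 186 CPM in control muscle. The groups overlapped, only control replicate 3 stood low, and the log2 fold change of 0.15 ± 0.11 (SE) was the smallest of the 10.

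Lamc1 (chr1:153218922-153332786, minus strand) encodes the gamma1 chain, which is shared by most laminins. It was at 652, 695 and 653 CPM in Myf5Cre-Pcyt2 muscle, against 527, 496 and 412 CPM in control muscle, the highest level of the 10 genes in every library. Nid1 (chr13:13437551-13512269, plus strand), the nidogen that binds this chain, was at 446, 502 and 464 CPM in Myf5Cre-Pcyt2 muscle, against 360, 353 and 315 CPM in control muscle. Neither gene's groups overlapped, and the log2 fold changes were close, at 0.48 ± 0.11 (SE) for Lamc1 and 0.46 ± 0.10 (SE) for Nid1.

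The same libraries tended to be extreme within each group. Myf5Cre-Pcyt2 replicate 2 was the highest of its group for 8 of the 10 genes, and replicate 1 the lowest for 6. Control replicate 1 was the highest of its group for 9 of the 10 genes, and control replicate 3 the lowest for 8. Without Myf5Cre-Pcyt2 replicate 2, 5 of the 10 genes were past the threshold in place of 8, Lama4, Lamc1 and Nid1 no longer being among them. Over all genes, leaving out that library took the calls in the higher direction from 1328 of 14715 tested to 422 of 14854.

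Exons of Lama2, Nid1 and Fras1 share bases with an annotated antisense gene, and whether the counting used strand is not stated by the submitters' notes used here. The overlap was 631 bases for Lama2 with Gm48084, 143 bases for Nid1 with Gm48682 and 159 bases for Fras1 with Gm42604. These antisense genes had 100, 18 and 0 counts over all 6 libraries.

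Promoter windows of RefSeq (GRCm38.p6, 250 bases before to 50 bases after a gene start) were matched for 7 of the 10 genes, in 8 windows. Fras1, Lama4 and Lamc1 had no entry. The windows of Frem2 (chr3:53657306-53657605, minus strand), Frem1 (chr4:83052117-83052416, minus strand), Lamb1 (chr12:31265043-31265342, plus strand) and Nid1 (chr13:13437352-13437651, plus strand) are printed because these genes were higher together and the window starts near the annotated gene start. Capitals mark the E-box CANNTG, the motif of muscle and other basic helix-loop-helix factors, and the GC box GGGCGG or its reverse complement.
Frem2: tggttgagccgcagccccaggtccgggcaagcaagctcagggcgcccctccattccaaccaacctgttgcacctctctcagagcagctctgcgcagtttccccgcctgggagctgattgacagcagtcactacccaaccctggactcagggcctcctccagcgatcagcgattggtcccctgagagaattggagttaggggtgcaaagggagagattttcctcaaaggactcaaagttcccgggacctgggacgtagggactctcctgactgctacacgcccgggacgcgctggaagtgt
Frem1: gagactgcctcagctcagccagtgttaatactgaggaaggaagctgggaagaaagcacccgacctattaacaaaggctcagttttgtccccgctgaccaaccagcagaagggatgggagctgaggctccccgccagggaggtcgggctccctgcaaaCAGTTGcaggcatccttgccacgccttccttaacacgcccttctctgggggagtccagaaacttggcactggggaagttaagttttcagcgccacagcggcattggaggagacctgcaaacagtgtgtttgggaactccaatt
Lamb1: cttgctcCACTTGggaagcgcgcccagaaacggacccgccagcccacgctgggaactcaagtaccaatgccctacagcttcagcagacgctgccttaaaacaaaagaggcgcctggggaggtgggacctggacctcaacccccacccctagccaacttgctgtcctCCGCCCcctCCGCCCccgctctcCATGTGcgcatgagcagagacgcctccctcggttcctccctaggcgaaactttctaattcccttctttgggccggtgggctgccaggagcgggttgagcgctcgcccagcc
Nid1: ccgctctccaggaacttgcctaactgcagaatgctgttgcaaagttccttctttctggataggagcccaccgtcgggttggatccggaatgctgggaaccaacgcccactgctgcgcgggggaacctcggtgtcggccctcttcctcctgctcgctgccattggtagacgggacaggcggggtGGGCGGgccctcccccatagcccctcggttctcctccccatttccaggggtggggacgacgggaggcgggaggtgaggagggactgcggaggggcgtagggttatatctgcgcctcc

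The printed windows held different motifs. The Frem2 window had 0 E-boxes and 0 GC boxes, the Frem1 window had 1 E-box and 0 GC boxes, the Lamb1 window had 2 of each, and the Nid1 window had 0 E-boxes and 1 GC box. Over the 8 windows, an E-box was present in 6 and a GC box in 4, beside 72.3% and 35.7% of all 32851 windows in the table. These windows include another Frem1 window, 31237 bases from the GENCODE gene start, and a Lama2 window, 2816 bases from it. Both of these held an E-box and the Lama2 window a GC box, so the tally is not of 1 promoter per gene. The E-box form CAGCTG, which is a subset of CANNTG, the TATA box TATAAA and the AP-1 site TGANTCA were in 0 of the 8 windows, beside 16.3%, 13.6% and 7.81% of all windows. Motifs were searched on both strands, and a match is a run of letters and not a site of binding.

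To compare levels between genes, CPM was divided by the merged exon length in kilobases. Lamc1 led with a mean of 80.6 ± 2.95 CPM per kb in Myf5Cre-Pcyt2 muscle and 57.9 ± 7.21 in control muscle, followed by Nid1 with 67.8 ± 4.08 CPM per kb in Myf5Cre-Pcyt2 muscle and 49.3 ± 3.50 in control muscle (SD, n = 3 each). Lamb2 had 40.1 ± 2.42 CPM per kb in Myf5Cre-Pcyt2 muscle and 36.0 ± 4.73 in control muscle, and Lamb1 had 30.3 ± 2.20 CPM per kb in Myf5Cre-Pcyt2 muscle and 19.2 ± 1.66 in control muscle. The alpha chain levels were lower than these. In Myf5Cre-Pcyt2 muscle Lama4 had 15.3, Lama2 had 12.0 and Lama5 had 4.41 CPM per kb, and in control muscle Lama4 had 11.2, Lama2 had 6.98 and Lama5 had 3.28 CPM per kb.

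Of the Fraser complex genes, Fras1 had 4.63, Frem2 had 3.66 and Frem1 had 0.62 CPM per kb in Myf5Cre-Pcyt2 muscle, and Fras1 had 2.55, Frem2 had 1.61 and Frem1 had 0.30 CPM per kb in control muscle. The order of the 10 genes was the same in all 6 libraries except for Fras1 and Lama5. Fras1 was above Lama5 in Myf5Cre-Pcyt2 replicates 1 and 3 and below it in the other 4 libraries, and their ranges overlapped in both groups. The ranges of Lamc1 and Nid1 did not overlap in Myf5Cre-Pcyt2 muscle, but they did in control muscle, where Lamc1 was at 49.8 to 63.8 and Nid1 at 45.3 to 51.8 CPM per kb. With the length of the longest protein-coding transcript instead, a choice made after the data were seen, Lamb1 was above Lamb2 in the 3 Myf5Cre-Pcyt2 libraries and below it in the 3 control libraries.

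The unequal differences of the chains show in their shares of the summed CPM per kb. Lama2 made up 38.9%, 35.9% and 38.9% of the 3 alpha chains in Myf5Cre-Pcyt2 muscle, against 31.6%, 32.7% and 33.3% in control muscle. Lama4 made up 47.8%, 49.8% and 47.1% in Myf5Cre-Pcyt2 muscle, against 51.8%, 51.4% and 53.9% in control muscle. The Lama2 share was thus higher and the Lama4 share lower in every Myf5Cre-Pcyt2 library than in any control library, while the Lama5 share overlapped between the groups, at 13.3% to 14.3% in Myf5Cre-Pcyt2 muscle and 12.8% to 16.6% in control muscle. With the longest transcript as length the mean Lama5 share was 7.94% in Myf5Cre-Pcyt2 muscle and 8.65% in control muscle, again with overlap.

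Lamb1 made up 42.6%, 46.4% and 40.1% of the 2 beta chains in Myf5Cre-Pcyt2 muscle, against 35.0%, 33.1% and 36.5% in control muscle. The groups did not overlap, and the mean share was 43.0% ± 3.16 in Myf5Cre-Pcyt2 muscle and 34.9% ± 1.70 in control muscle (SD, n = 3 each). With the longest transcript as length the Lamb1 shares were 54.5% in Myf5Cre-Pcyt2 muscle and 45.9% in control muscle, again without overlap. These shares are ratios of the same values that describe the genes singly, and are given without a test.

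**Figure D2:**
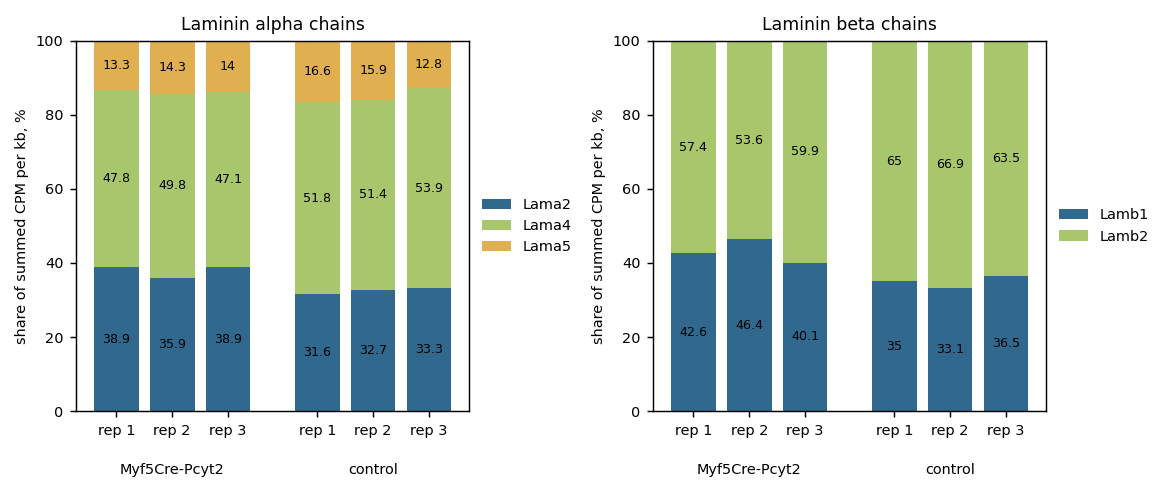
Share of each laminin alpha chain gene (left) and beta chain gene (right) in the summed CPM per kb of its class, in percent, for every library, with the 3 Myf5Cre-Pcyt2 libraries left of the 3 control libraries; numbers in the bars are the shares. The Lama2 share is 35.9% to 38.9% in Myf5Cre-Pcyt2 muscle and 31.6% to 33.3% in control muscle, and the Lamb1 share is 40.1% to 46.4% in Myf5Cre-Pcyt2 muscle and 33.1% to 36.5% in control muscle.

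Levels per kb were also set against Lamc1 in the same library. The 3 alpha chains together were 0.394 ± 0.019 of Lamc1 in Myf5Cre-Pcyt2 muscle and 0.372 ± 0.022 in control muscle, with overlap. The 2 beta chains together were 0.874 ± 0.031 of Lamc1 in Myf5Cre-Pcyt2 muscle and 0.956 ± 0.017 in control muscle, without overlap. Taking the longest transcript as length, the alpha chains together were 0.634 of Lamc1 in Myf5Cre-Pcyt2 muscle and 0.600 in control muscle, again with overlap. The beta chains together were then 1.090 of Lamc1 in Myf5Cre-Pcyt2 muscle and 1.147 in control muscle, again without overlap. Whether the beta chains lay above or below Lamc1 thus depended on the length used. The ratio of Nid1 to Lamc1 was 0.841 ± 0.023 in Myf5Cre-Pcyt2 muscle and 0.856 ± 0.049 in control muscle, with overlap.

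The Fraser complex genes were 11.1% ± 0.346 of the Lamc1 level in Myf5Cre-Pcyt2 muscle and 7.71% ± 1.06 in control muscle, without overlap (SD, n = 3 each). Among themselves their shares overlapped between the groups. In Myf5Cre-Pcyt2 muscle Fras1 was 47.1% to 55.0%, Frem2 38.4% to 45.1% and Frem1 5.32% to 7.84% of the 3 genes. In control muscle Fras1 was 52.7% to 63.5%, Frem2 30.5% to 40.7% and Frem1 5.98% to 7.99%.

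The partners of the Fraser complex were on a list of 5 genes, of which 3 passed the filter, 2 rose and 0 fell. This list and the lists below were also chosen with earlier results of these data known. Npnt encodes nephronectin, a basement membrane ligand of integrin alpha8. It was at 80.1, 83.2 and 72.9 CPM in Myf5Cre-Pcyt2 muscle, against 43.9, 41.0 and 46.1 CPM in control muscle (log2 fold change 0.85 ± 0.09 SE, edgeR adjusted p = 0.0012). Itga8, the integrin alpha8 chain itself, was at 18.4, 17.6 and 17.3 CPM in Myf5Cre-Pcyt2 muscle, against 13.6, 11.3 and 11.2 CPM in control muscle (0.56 ± 0.11, edgeR adjusted p = 0.0075). Neither gene's groups overlapped, and both genes stayed past the threshold under all 13 alternatives.

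Grip1, a cytoplasmic adaptor known in mice to bind Fras1, was named after its values had been seen. It was at 0.747, 0.742 and 0.647 CPM in Myf5Cre-Pcyt2 muscle, against 0.212, 0.406 and 0.406 CPM in control muscle. The groups were apart, but the difference did not pass (log2 fold change 1.06 ± 0.37 SE, edgeR adjusted p = 0.0681). Frem3 and Vwa2 stayed under the filter, at no more than 0.0437 and 0.0873 CPM in any library.

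Of the 5 other laminin chain genes, 4 were tested, 0 rose and 1 fell. Lamc3, the gamma3 chain gene, had 7, 3 and 5 counts in Myf5Cre-Pcyt2 libraries, against 33, 20 and 14 in control libraries, a log2 fold change of −2.36 ± 0.44 (SE, edgeR adjusted p = 0.0073). These counts are low, DESeq2 gave Lamc3 no adjusted p, and a filter of 1 CPM in 3 libraries removed it. Lama3 and Lamb3 lay between 2.09 and 5.15 CPM with overlapping groups, and Lama1 was under the filter.

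Other basement membrane components were represented by 17 genes, of which 4 rose, 0 fell and 13 passed neither way, with a median log2 fold change of 0.19. Nid2, the second nidogen, was at 131, 148 and 129 CPM in Myf5Cre-Pcyt2 muscle, against 107, 90.8 and 86.0 CPM in control muscle (0.52 ± 0.10 SE, edgeR adjusted p = 0.0095). The heparan sulfate proteoglycan genes Hspg2 (perlecan) and Agrn (agrin) and the collagen XVIII gene Col18a1 had log2 fold changes of 0.66, 0.38 and 0.40 with edgeR adjusted p of 0.0343, 0.0313 and 0.0461. The count of 4 was 1 when control replicate 2, control replicate 3, Myf5Cre-Pcyt2 replicate 2 or Myf5Cre-Pcyt2 replicate 3 was left out, and 2 with the replicate number as a block. It was 6 when control replicate 1 was left out, 6 with no filter on low counts and 9 with library size as the only scaling.

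The genes of the abundant collagen IV chains were not past the threshold, though every Myf5Cre-Pcyt2 library was above every control library for both. Col4a1 was at 1599, 1714 and 1641 CPM in Myf5Cre-Pcyt2 muscle, against 1574, 1554 and 1149 CPM in control muscle (log2 fold change 0.21 ± 0.14 SE, edgeR adjusted p = 0.305). Col4a2 had a log2 fold change of 0.36 ± 0.14 (SE, edgeR adjusted p = 0.0998). Col4a1 passed in 1 of the 13 alternatives (library size as the only scaling) and Col4a2 in 3 (that one, DESeq2 and no filter). These 2 genes were named after their values had been seen, and control replicate 3 was the lowest library for both.

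Of 8 laminin receptor genes, 2 rose, 0 fell, and all 8 had positive log2 fold changes with a median of 0.19. Dag1, which encodes dystroglycan, was at 773, 734 and 734 CPM in Myf5Cre-Pcyt2 muscle, against 620.2, 606 and 538 CPM in control muscle (0.35 ± 0.10 SE, edgeR adjusted p = 0.0387). Itga7, the alpha chain of the main laminin-binding integrin of muscle, was at 170.3, 177 and 164 CPM in Myf5Cre-Pcyt2 muscle, against 138, 138 and 141 CPM in control muscle (0.30 ± 0.08 SE, edgeR adjusted p = 0.0291). The count of 2 was 0 or 1 whenever any single library was left out, 0 with the replicate block, and 5 with library size as the only scaling.

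Enzymes that build the laminin-binding sugar of dystroglycan formed a list of their own. Of 13 tested genes 0 rose and 4 fell, with a median log2 fold change of −0.22. Pomgnt2, which extends the O-mannose glycan, was at 6.25, 7.12 and 6.51 CPM in Myf5Cre-Pcyt2 muscle, against 10.2, 11.7 and 9.62 CPM in control muscle (−0.66 ± 0.13 SE, edgeR adjusted p = 0.0089). B3galnt2 and Pomt1 had log2 fold changes of −0.37 and −0.31 with edgeR adjusted p of 0.0241 and 0.0447. Pomt1 was not past the threshold in 10 of the 13 alternatives, where its adjusted p reached 0.551, and B3galnt2 was not past it in 5. The count of 4 was 1 when Myf5Cre-Pcyt2 replicate 2 was left out, 2 when control replicate 2 or Myf5Cre-Pcyt2 replicate 3 was left out, 2 with the replicate block, and 1 when libraries were scaled by total count alone.

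**Figure D3:**
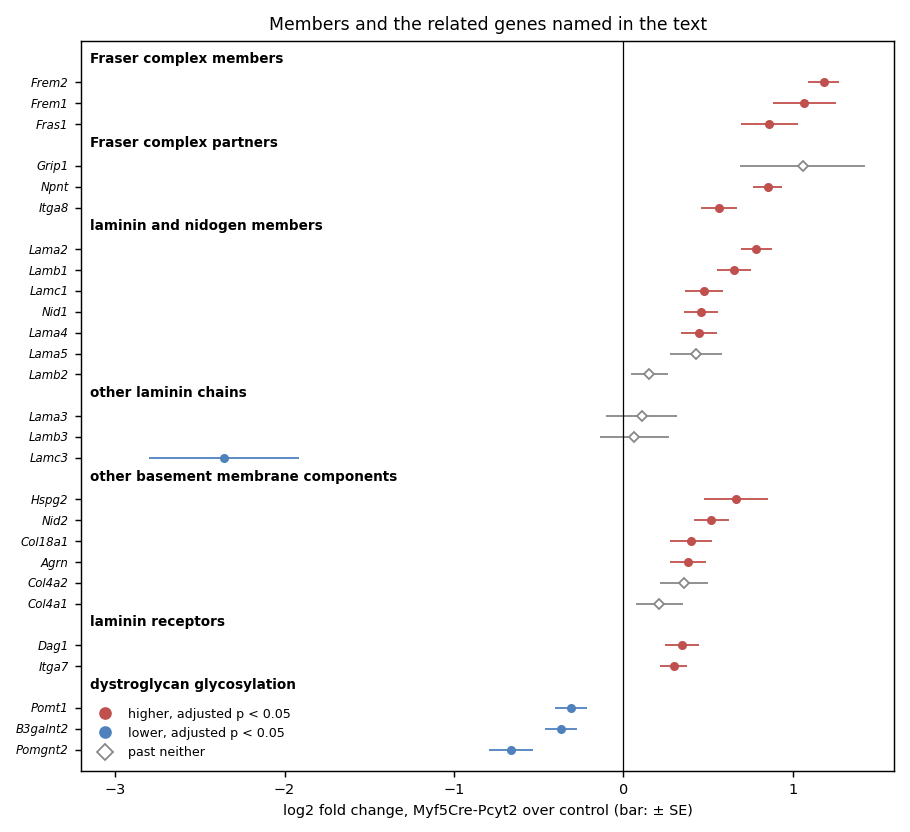
Log2 fold change, Myf5Cre-Pcyt2 over control (horizontal axis), with bars of ± SE from edgeR's fit, for the 10 genes and the genes of 5 related lists named in the text; filled red circles are higher and filled blue circles lower at an adjusted p under 0.05, and open diamonds are past neither. All 10 genes lie right of 0, from 0.15 for Lamb2 to 1.18 for Frem2, and the dystroglycan glycosylation genes shown are filled blue, since the naming rule took those past the threshold.

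In bulk muscle, fewer or more cells of a type and less or more RNA per cell cannot be told apart. Marker lists of cell types are therefore given beside the genes. Muscle fibre markers had 5 of 10 genes lower and 0 higher, with a median log2 fold change of −0.66, and were lower in summed level in every Myf5Cre-Pcyt2 library. Satellite cell markers had 5 of 8 higher and 0 lower, with summed levels of 260.0 to 276 CPM in Myf5Cre-Pcyt2 libraries and 193 to 204 CPM in control libraries, and Sdc4 and Cdh15 had the highest means over the 6 libraries. Schwann cell markers had 6 of 10 higher and 0 lower, with summed levels of 682 to 924 CPM in Myf5Cre-Pcyt2 libraries and 460.2 to 562 CPM in control libraries, and included Pmp22, a peripheral myelin gene.

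Without single libraries these counts changed. The muscle fibre count of 5 was 3 when control replicate 2 was left out and 2 when Myf5Cre-Pcyt2 replicate 2 or 3 was. The satellite cell count of 5 was 3 when control replicate 2 or 3 or Myf5Cre-Pcyt2 replicate 1 or 3 was left out. The Schwann cell count of 6 was 3 without Myf5Cre-Pcyt2 replicate 2. With the library size scaling 1 muscle fibre marker was higher. With the replicate block the muscle fibre count was 2 and the satellite cell count was 3.

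Fibroblast markers had 1 of 10 higher and 0 lower, with summed levels of 16545 to 18556 CPM in Myf5Cre-Pcyt2 libraries and 11962 to 15593 CPM in control libraries, led by Col1a1 and Col3a1. Neither Col1a1 nor Col3a1 was past the threshold. The gene that rose was Pdgfra, a receptor that marks muscle fibroblasts, with a log2 fold change of 0.54 ± 0.08 (SE, edgeR adjusted p = 0.0032). The fibroblast count of 1 was 3 with DESeq2 and 5 with library size as the only scaling. Tendon markers, led by Fmod and Thbs4, had 2 of 6 higher and 0 lower, with sums of 605 to 711 CPM in Myf5Cre-Pcyt2 libraries and 485 to 702 CPM in control libraries. Endothelial markers, led by Cdh5 and Pecam1, had 0 of 9 higher and 2 lower, with sums of 860.2 to 968 CPM in Myf5Cre-Pcyt2 libraries and 843 to 1016 CPM in control libraries. Smooth muscle and pericyte markers, led by Acta2 and Rgs5, had 1 of 8 higher and 1 lower, with sums of 1326 to 1486 CPM in Myf5Cre-Pcyt2 libraries and 1675 to 1929 CPM in control libraries. The lower gene was Acta2, with means of 471 CPM in Myf5Cre-Pcyt2 muscle and 823 CPM in control muscle. The median log2 fold change of this list was −0.006, with 4 of 8 above 0, so its lower sum does not describe the list gene by gene. The tendon count of 2 was 1 without Myf5Cre-Pcyt2 replicate 2 or replicate 3 and 4 with the library size scaling. The endothelial count of 2 was 0 without any one library other than control replicate 3, with the replicate block and with the library size scaling, which put 1 gene higher instead. The smooth muscle count of 1 higher was 2 with that scaling and 0 without control replicate 2 or 3 or Myf5Cre-Pcyt2 replicate 2 or 3, and that of 1 lower was 2 without control replicate 1.

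The remaining lists had 0 genes past the threshold by edgeR, and at an unadjusted p under 0.05 they had 3 macrophage, 1 adipocyte and 1 epidermis markers. Macrophage markers, led by Mrc1 and Csf1r, summed to 151 to 182 CPM in Myf5Cre-Pcyt2 libraries and 135 to 168 CPM in control libraries, and adipocyte markers, led by Fabp4 and Cfd, to 439 to 513 CPM in Myf5Cre-Pcyt2 libraries and 324 to 906 CPM in control libraries. Epidermis markers, of interest because the Fraser complex is best known from skin, had 3 of 8 genes above the filter, led by Trp63 and Krt10, and summed to 19.4 to 25.1 CPM in Myf5Cre-Pcyt2 libraries and 19.7 to 21.4 CPM in control libraries. Of the defining keratins, Krt5 was at 0 in all 6 libraries and Krt14 at 0 in 5 of them. The macrophage count of 0 was 2 higher without control replicate 3 or Myf5Cre-Pcyt2 replicate 1, 3 higher with the library size scaling, and 3 higher and 1 lower with no filter on low counts. The adipocyte count of 0 was 1 lower without control replicate 2 and 5 lower with no filter. The part of the muscle fibre, satellite cell, Schwann cell, fibroblast and smooth muscle markers in the levels of the 10 genes was not tested.

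**Figure D4:**
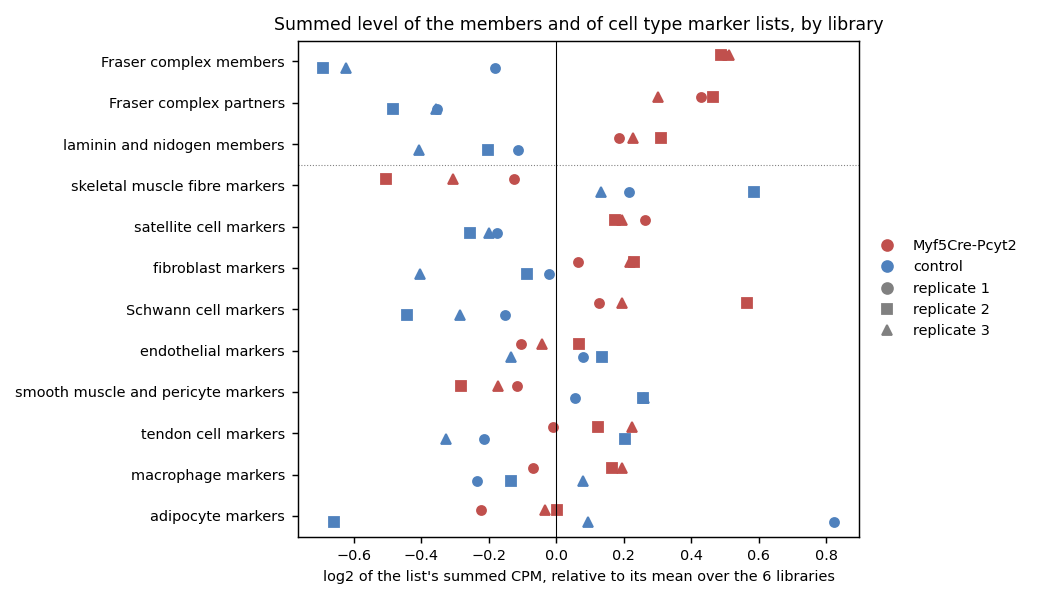
Log2 of the summed CPM of each list in each library, relative to its mean over the 6 libraries (horizontal axis), with Myf5Cre-Pcyt2 in red and control in blue and the replicate number as marker shape. The 3 top rows are the Fraser complex genes, their partners and the laminin and nidogen genes, and the muscle fibre, satellite cell, fibroblast, Schwann cell and smooth muscle sums do not overlap between the groups either. Abundant genes weigh most in a sum, and 4 of 8 smooth muscle and pericyte markers had a log2 fold change above 0.

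The genes with the most similar profile were sought among 12132 named protein-coding genes with at least 1 CPM on average, as the smallest root mean square distance between log2 CPM values centred on their mean over the 6 libraries. For the mean profile of the 3 Fraser complex genes these were Slc38a1 at a distance of 0.063, Ajap1 at 0.073, Camkk1 at 0.096, Myh7b at 0.10 and Cdc7 at 0.102. The members themselves were farther from their own mean, with Frem2 at 0.139, Frem1 at 0.153 and Fras1 at 0.190. Slc38a1, which encodes a neutral amino acid transporter, was at 15.5, 16.9 and 15.3 CPM in Myf5Cre-Pcyt2 muscle, against 8.73, 7.54 and 7.41 CPM in control muscle.

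For the mean profile of the 7 laminin and nidogen genes the nearest were Peli2 at 0.021, Cpt1a at 0.025, Col6a1 at 0.026, Ptgfrn at 0.032 and Fbln2 at 0.034. Lamc1 at 0.029 and Nid1 at 0.044 lay closest to that mean among its own members, and Lama2 at 0.154 and Lamb2 at 0.189 lay farthest, Lama2 having the largest and Lamb2 the smallest fold change of the 7. Of these 5 nearest genes, Col6a1 and Fbln2 encode a collagen VI chain and fibulin 2, both extracellular matrix proteins. The distance takes in the difference between the groups, so genes with a similar fold change lie near. The 5 genes had log2 fold changes of 0.45 to 0.52.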

How the data were processed

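RNA was extracted with a Qiagen RNeasy kit from frozen quadriceps, per the labels' protocols. The authors deposited raw counts for each Ensembl gene. The submitters' processing notes name featureCounts, Subread (1.6.2), Bowtie2 (2.3.4.1), Trim Galore (0.5.0) and the builds GRCm38 and mm10, with no role or order. Annotation release, strand setting and treatment of multi-mapping reads were not given in the sources used here. A symbol was joined from GENCODE M21 for 54495 of 54532 genes, and 26363 genes had 0 counts in every library. All pairs of libraries within a group differed by more than sampling noise.

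Genes were filtered with filterByExpr, scaled with TMM and compared with edgeR 4.0.16's quasi-likelihood test (R 4.3.3), two-sided, with Benjamini-Hochberg adjustment over 14715 genes and a threshold of 0.05. The estimated biological coefficient of variation was 11.6%. Alternatives used DESeq2 1.42.0, limma 3.58.1 (voom), other scalings and filters, a replicate block and leaving out each library. Tables and figures were made with pandas 2.3.3 and matplotlib 3.10.9 in Python 3.11.15. The procedure was tested on simulated data, in which a few genes were changed, each up or down at random. It found 38 of 67 genes changed 1.5-fold, 53 of 67 changed 2-fold and 66 of 66 changed 4-fold. Of its 170 calls, 13 were on genes that had not been changed. Far fewer genes were changed than were called in the real libraries, so a difference as wide as theirs was not simulated.

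The 10 genes, the lists and the tests were chosen with earlier results of these data known. The rule for naming took all 10 genes, Pcyt2 and Myf5, up to 5 genes of each related list past the threshold in order of p, Dag1 and Itga7, the 2 most abundant genes of each marker list, and the 5 nearest profiles. Members of small lists and Grip1, Col4a1, Col4a2, Pdgfra, Krt5 and Krt14 were named after their values were seen. Some genes of the lists are not reported here and stay in the list counts.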

Additional observations from a re-analysis of the deposited data

How the results depend on the processing

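Over 13 alternatives, none of the 130 log2 fold changes of the 10 genes changed direction. The 10 genes were chosen with this contrast in view. Their calls below describe the dependence on processing and support nothing by themselves. Fras1, Frem1, Frem2, Lama2 and Lamb1 stayed past the threshold in all 13, with log2 fold changes of 0.73 to 1.13, 0.97 to 1.29, 1.10 to 1.39, 0.73 to 0.99 and 0.59 to 0.87. Lama4 (0.36 to 0.66) was not past it without control replicate 2, Myf5Cre-Pcyt2 replicate 2 or Myf5Cre-Pcyt2 replicate 3. Lamc1 (0.38 to 0.69) was not past it without Myf5Cre-Pcyt2 replicate 2 or 3 or with the replicate block. Nid1 (0.40 to 0.67) was not past it without Myf5Cre-Pcyt2 replicate 2. Lama5 (0.27 to 0.65) passed with library size alone, DESeq2, no filter and without control replicate 1, and Lamb2 (0.05 to 0.37) passed with the library size scaling. The count of the 10 genes past the threshold was 5 to 9 with 1 library left out and 7 with the block. Over all genes, the counts higher and lower were 865 and 866 with the replicate block, 3225 and 499 with library size alone, and 422 to 1337 and 424 to 1448 with 1 library left out. The cause was not tested. Libraries with the same replicate number did not deviate together (correlations −0.11, −0.17 and 0.02), so the numbers were not taken as pairs.

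Of the 10 genes Frem1 had the lowest counts, at most 225 a library, and Lamc3 had at most 33.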
